A study of Mus musculus with 9 samples.

Results

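The enzymes that make and break down polyamines, with the proteins that regulate them, were measured in gastrocnemius muscle from CD-1 mice, which are outbred and were young adults here. The members were chosen by name: Odc1, Amd1, Srm, Sms, Smox, Paox, Sat1, Oaz1, Oaz2 and Azin1, with every microarray probe set annotated to them. That gave 20 probe sets for 9 of the 10 genes, out of 45037 probe sets tested on the array. No probe set was listed to Paox in the annotation used here, so that gene is not analysed here. The annotation also lists no gene for the 2 probe sets taken for Amd1 when the members were chosen. They are called the brighter and the dimmer Amd1-assigned probe set, and the plots label them by identifier. All 3 probe sets of Sms are also listed to the pseudogene Sms-ps, and 1 of the 2 of Oaz1 to Oaz1-ps, so those values may mix both transcripts.

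Testosterone mice were castrated and given a 2.5 mg testosterone pellet made to release over 60 days. Castration mice were castrated and given a placebo pellet. In sham mice the surgery was a sham operation and the pellet again held placebo. Muscle was taken at day 14 from non-fasted animals, and each group had 3 arrays, each of RNA pooled from 3 animals, so a spread between arrays is one between pools. Expression is given as log2 values, on which 1 unit is a doubling, and array medians lay between 3.15 and 3.26.

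Polyamines are small positively charged molecules that bind nucleic acids and are needed for growth and translation. Odc1, ornithine decarboxylase, makes putrescine, and Srm and Sms, the spermidine and spermine synthases, extend it with groups from S-adenosylmethionine that Amd1, its decarboxylase, has activated. Smox oxidises spermine back to spermidine, and Sat1 acetylates polyamines for export or for oxidation by Paox. The antizymes Oaz1 and Oaz2 bind ornithine decarboxylase and send it to the proteasome, and Azin1 holds antizyme away from it. Androgen control of Odc1 is well known from rodent kidney and muscle.

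The tissue label matched its markers: all 8 muscle fibre markers were measured, and Ckm lay between 13.96 and 14.03 and Acta1 between 14.17 and 14.24 on all arrays. Arrays testosterone 2 and sham 2 stood apart, with mean correlations to the other arrays of 0.981 and 0.972, against 0.989 to 0.991 for the rest. Some results are therefore also given without both, while others are given only with all 9 arrays. A marker score is the mean log2 deviation of a cell type's markers from their own means over the arrays. For adipocyte markers, 5 of 7 of them measured, it ran from −0.70 to 1.38 in testosterone, −0.80 to −0.68 in castration and −0.36 to 1.09 in sham. Their summed linear level was 1549.5 to 3280.4, 1600.5 to 1943.8 and 1831.5 to 3240.7 in the same groups. Fibroblast and matrix markers, 5 of 5 measured, scored −0.33 to −0.06 in testosterone, 0.11 to 0.36 in castration and −0.55 to 0.31 in sham. Their summed levels were 2941.8 to 3508.9, 3978.3 to 4510.6 and 3033.2 to 4625.7. Endothelial markers, 5 of 5 measured, scored −0.42 to 0.13, 0.09 to 0.39 and −0.41 to 0.06, with summed levels of 238 to 309, 315 to 380 and 213 to 312. Macrophage and lymphocyte markers, 7 of 7 measured, scored −0.29 to 1.21, −0.28 to −0.16 and −0.17 to 0.30, the highest on testosterone 2, with summed levels of 176 to 623, 173 to 198 and 196 to 279.8. None of the markers in these lists lay below the array median on all 9 arrays. However, Lep was above it only on testosterone 1 and testosterone 2, and Ptprc only on testosterone 2 and sham 2.

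The upstream sequences of the 3 genes whose probe sets were lowest after castration are shown because castration was lowest for all of them. They are the bases just before each gene's first annotated base, from RefSeq on GRCm38.p6, read 5′ to 3′ on the gene's strand. Capitals mark the GC box GGGCGG or its reverse complement, a motif chosen after the sequences had been seen. Smox is at chr2:131491612-131491857 on the + strand, Odc1 at chr12:17544623-17544807 on the + strand and Amd1 at chr10:40302189-40302438 on the − strand.
Smox: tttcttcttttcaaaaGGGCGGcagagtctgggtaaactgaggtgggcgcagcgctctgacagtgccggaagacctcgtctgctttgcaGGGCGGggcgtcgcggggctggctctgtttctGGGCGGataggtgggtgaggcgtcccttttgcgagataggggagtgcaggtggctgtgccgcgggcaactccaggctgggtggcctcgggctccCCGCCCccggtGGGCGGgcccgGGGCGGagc
Odc1: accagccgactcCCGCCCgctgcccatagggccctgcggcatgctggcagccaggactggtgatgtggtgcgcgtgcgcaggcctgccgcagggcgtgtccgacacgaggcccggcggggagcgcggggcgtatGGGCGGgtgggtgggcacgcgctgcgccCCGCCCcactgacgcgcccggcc
Amd1: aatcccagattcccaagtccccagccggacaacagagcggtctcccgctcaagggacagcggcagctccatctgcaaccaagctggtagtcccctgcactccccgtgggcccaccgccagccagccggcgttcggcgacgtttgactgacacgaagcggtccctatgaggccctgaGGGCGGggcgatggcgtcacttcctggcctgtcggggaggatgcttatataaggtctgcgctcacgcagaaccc

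The stretches shown held 6 GC boxes for Smox, 3 for Odc1 and 1 for Amd1, and their G and C share was 67.9%, 77.8% and 64.4%. Motifs were searched on both strands over the 250 bases before the start, a window that for Odc1 is longer than the 185 bases shown and held 4 GC boxes. A GC box was in 32.7% of 32851 promoters in the table and in 8 of the 10 windows of member genes. Members that were not called held it too, with 2 in Sat1, 3 in Oaz2 and 4 in 1 of the Sms windows, so the motif does not set the 3 genes apart. AGAACA, the hexamer of androgen response elements, was in none of these 3 windows, and 16.1% of all promoters held it. The androgen response element's full inverted repeat, which contains that hexamer on both strands, was also in none of the 3, and 0.00913% of promoters held it. The E-box CACGTG was in none of the 3, against 6.02% of promoters. Over the 8 member genes with a promoter in the table, Sat1 and Oaz2 held AGAACA once each and 1 of the 2 Sms windows held an E-box. Srm and Azin1 had no entry. A match or its lack describes these letters in this window only.

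Set against the mean of the testosterone and sham groups, Smox and the 2 probe sets taken for Amd1 fell after castration. Odc1 was lower on all 3 castration arrays than on any other array for each of its 3 probe sets, but its differences did not pass. Srm, Sms, Sat1, Oaz1, Oaz2 and Azin1 did not pass in any comparison.

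**Figure D1:**
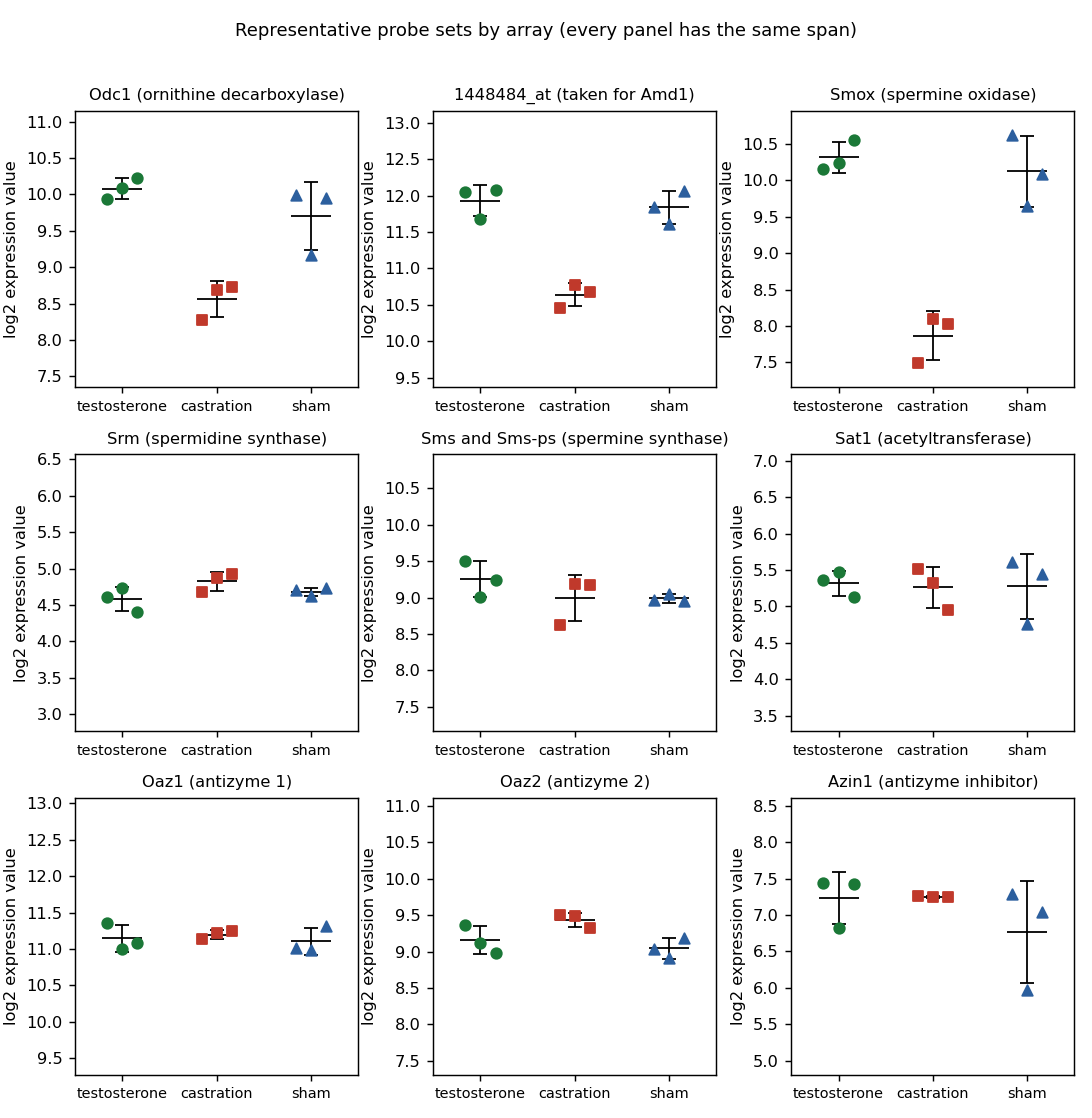
Log2 expression values of the representative probe set of each of 9 genes, 1 point per array, in testosterone, castration and sham. It is the brightest probe set of the gene, except that for Oaz1 it is the brightest listed to it alone. The group mean is a horizontal line, with bars of 1 SD (n = 3). The castration points of Odc1, Amd1 and Smox lie below all 6 other points, and those of the other 6 genes do not.

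Smox was at 10.15, 10.24 and 10.55 in testosterone, at 7.48, 8.09 and 8.03 in castration and at 10.63, 9.65 and 10.09 in sham. All 6 arrays with androgen lay above all 3 castration arrays, with a gap of 1.56 between the nearest. The means were 10.32 ± 0.21, 7.87 ± 0.33 and 10.12 ± 0.49 in testosterone, castration and sham (SD, n = 3 each). Adipocyte scores of testosterone 1, 2 and 3 were 0.57, 1.38 and −0.70, and their part in the Smox values was not tested. The second Smox probe set, 1446509_at, lay between 2.48 and 2.84 on all arrays, below every array median, so it carries little signal.

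The brighter Amd1-assigned probe set was at 12.05, 11.68 and 12.07 in testosterone, at 10.46, 10.77 and 10.68 in castration and at 11.85, 11.61 and 12.06 in sham. The dimmer was at 11.37, 10.79 and 11.33 in testosterone, at 9.34, 9.59 and 9.54 in castration and at 11.30, 10.63 and 11.26 in sham. For both probe sets the castration arrays lay apart from and below the other 6, by 0.84 and 1.05. The identifier suffix of the dimmer marks a probe set that can bind transcripts of more than 1 gene, and the close relative Amd2 was not told apart here.

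Odc1, on its brightest probe set 1438761_a_at, was at 9.94, 10.09 and 10.22 in testosterone, at 8.28, 8.69 and 8.73 in castration and at 9.99, 9.17 and 9.95 in sham. The castration arrays were again the lowest, with sham 2 the nearest to them. The probe set 1427364_a_at ranged from 8.52 to 8.99 in testosterone, 6.87 to 7.32 in castration and 8.08 to 8.88 in sham. The probe set 1437711_x_at ranged from 9.57 to 9.82, 7.68 to 8.52 and 8.64 to 9.48, so castration was apart and lowest on each. The gap to the nearest other array was 0.44 on 1438761_a_at, 0.76 on 1427364_a_at and only 0.11 on 1437711_x_at. The suffix of the last also marks a probe set that can bind other transcripts.

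Castration against the mean of testosterone and sham asks how the group without testicular androgen stood to both groups with androgen. Smox fell by 2.35 on the log2 scale (SE 0.22, adjusted p = 0.0371), which is 5.10-fold lower. The brighter Amd1-assigned probe set fell by 1.25 (SE 0.13, adjusted p = 0.0371) and the dimmer fell by 1.62 (SE 0.18, adjusted p = 0.0464), which is 2.38-fold and 3.08-fold lower. The Odc1 probe sets 1427364_a_at, 1437711_x_at and 1438761_a_at differed by −1.49, −1.42 and −1.33 with adjusted p of 0.0694, 0.210 and 0.136, so none passed. By p-value, Smox ranked 3 and the Amd1 probe sets 8 and 13 among all 45037 probe sets. Thus 3 of the 20 member probe sets passed, all lower, against 14 probe sets or 0.0311% over the array (0.0178% called lower). The castration arrays lay wholly below the other 6 for 6 of the 20, against 0.959% of all probe sets, and probe sets of 1 gene share their target. At an unadjusted p under 0.05, 8 of the 20 were called, against 3.21% of all.

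This contrast and the members were chosen with earlier results of these data known, so the shares above are not an independent test. The calls in this contrast are near the threshold. Leaving out 1 array in turn moved the Smox difference between −2.47 and −2.16, but Smox passed only without sham 2, and the 2 Amd1 probe sets passed only without sham 2 or testosterone 2, with adjusted p for the 3 of up to 0.478. Over the 20, 5 passed without sham 2, 2 without testosterone 2 and 0 without any other array. Without both arrays that stand apart, 5 member probe sets passed, with differences of −2.49 for Smox, −1.37 and −1.82 for the brighter and dimmer Amd1-assigned probe sets, and −1.60 and −1.46 for Odc1 on 1427364_a_at and 1438761_a_at. Their adjusted p ran from 0.00124 to 0.0291. None of the 20 passed with median centring of the arrays, with the replicate number as a block or in an analysis of variance without moderation. In the adipocyte and endothelial scores given above, castration lay apart from sham and overlapped testosterone. In the matrix scores it lay apart from testosterone and overlapped sham. In the summed levels, castration lay above both other groups for endothelial markers (315 to 380, against at most 309 and 312) and overlapped both for adipocyte markers. Erythroid scores, from 2 of 3 markers, were −0.15 to −0.06 in castration, below testosterone (−0.02 to 0.095) and sham (−0.04 to 0.18). Of these markers, Hba-a1 lay near the array medians, at 2.95 to 3.39. The part of these scores and levels in these results was not tested. In whole muscle, fewer cells of a type and less RNA per cell cannot be told apart.

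**Figure D2:**
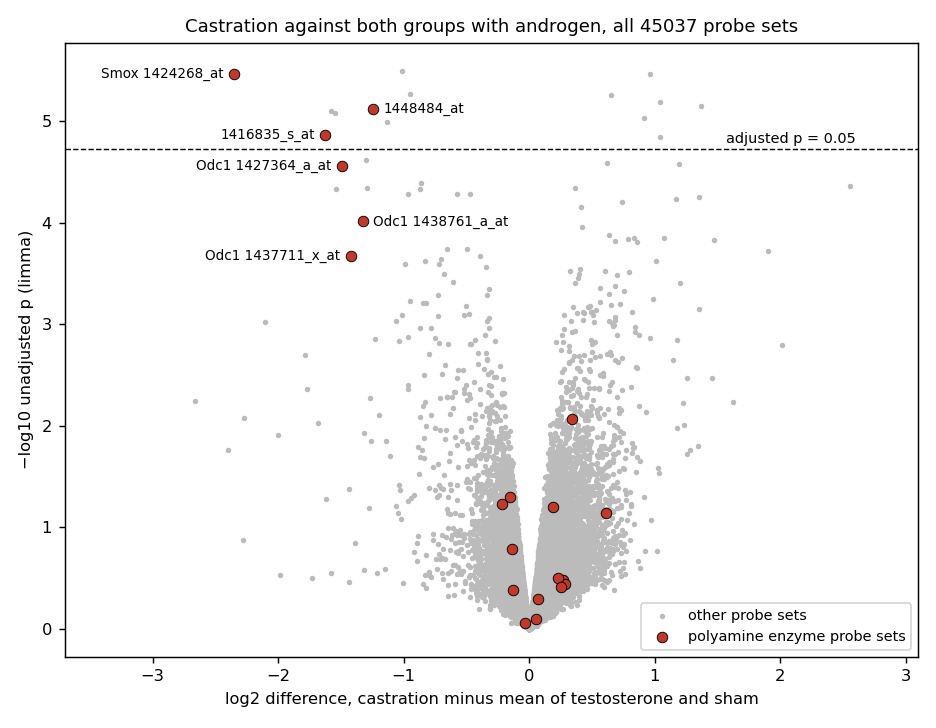
Each point is 1 of 45037 probe sets, by its log2 difference between castration and the mean of testosterone and sham (x axis) and the −log10 of its unadjusted limma p (y axis). Of the 20 polyamine probe sets in red, the brighter Smox probe set and both of Amd1 lie above the dashed line at an adjusted p of 0.05, and 3 Odc1 probe sets lie below it.

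Testosterone against castration asks what testosterone replacement did. Smox was higher by 2.45 (SE 0.25, adjusted p = 0.0872), 5.45-fold, with testosterone, the brighter Amd1-assigned probe set by 1.30 (SE 0.15, adjusted p = 0.0995), 2.45-fold, and the dimmer by 1.68 (SE 0.21, adjusted p = 0.110), 3.19-fold. Odc1 was higher by 1.52 to 1.69 over its 3 probe sets, with adjusted p of 0.110 to 0.217. None of the 20 passed, and neither did any of the 45037 probe sets by limma. At an unadjusted p under 0.05, 9 of the 20 were called, against 3.02% of all, and the testosterone and castration arrays did not overlap for 7 of the 20, against 7.94% of all. Without both arrays that stand apart, 4 passed: Smox, both Amd1 probe sets and Odc1 on 1438761_a_at, with adjusted p of 0.0386, 0.0254, 0.00425 and 0.0401. Their differences were then 2.49, 1.42, 1.86 and 1.51. Leaving out sham 2 alone let 5 pass.

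Castration against sham asks what loss of the testes did, and it shares the castration arrays with the comparison above. Smox differed by −2.26 (SE 0.25, adjusted p = 0.125), the brighter Amd1-assigned probe set by −1.20 (SE 0.15, adjusted p = 0.125) and the dimmer by −1.57 (SE 0.21, adjusted p = 0.158). Odc1 differed by −1.36 to −1.14, with adjusted p of 0.343 to 0.844. None of the 20 and none of the 45037 passed. At an unadjusted p under 0.05, 8 of the 20 were called, against 4.19% of all, and the castration and sham arrays did not overlap for 10 of the 20, against 7.97% of all. Without both arrays that stand apart, Smox and both Amd1 probe sets passed, with adjusted p of 0.0480, 0.0410 and 0.00454.

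Testosterone against sham asks whether replacement left the muscle apart from that of intact mice. The difference was 0.19 for Smox with a 95% interval of −0.39 to 0.77, 0.09 for the brighter Amd1-assigned probe set (−0.25 to 0.44) and 0.38 for Odc1 (−0.13 to 0.89). The intervals reach 1.71-fold higher for Smox and 1.85-fold higher for Odc1. On the Odc1 probe set 1437711_x_at the interval was wider, from −0.07 to 1.14 on the log2 scale. None of the 20 passed or had an unadjusted p under 0.05, against 4.75% of all, and the arrays did not overlap for 2 of the 20, against 6.82% of all. These were Odc1 on 1437711_x_at, at 0.53, and Oaz2 on 1442541_at, at −0.24. Over all 45037 probe sets 0 passed. The order of group means for Smox, both Amd1 probe sets and all Odc1 probe sets was testosterone, sham, castration, and the difference between testosterone and sham did not pass for any of them. The moderated F test over the 3 groups, the one-way test that the study's design names, called 0 of the 20 and 0 of all, with 8 of the 20 at an unadjusted p under 0.05 against 3.5% of all. Its adjusted p was 0.121 for Smox and the brighter Amd1-assigned probe set, and 3 member probe sets passed without sham 2 or without both arrays that stand apart.

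**Figure D3:**
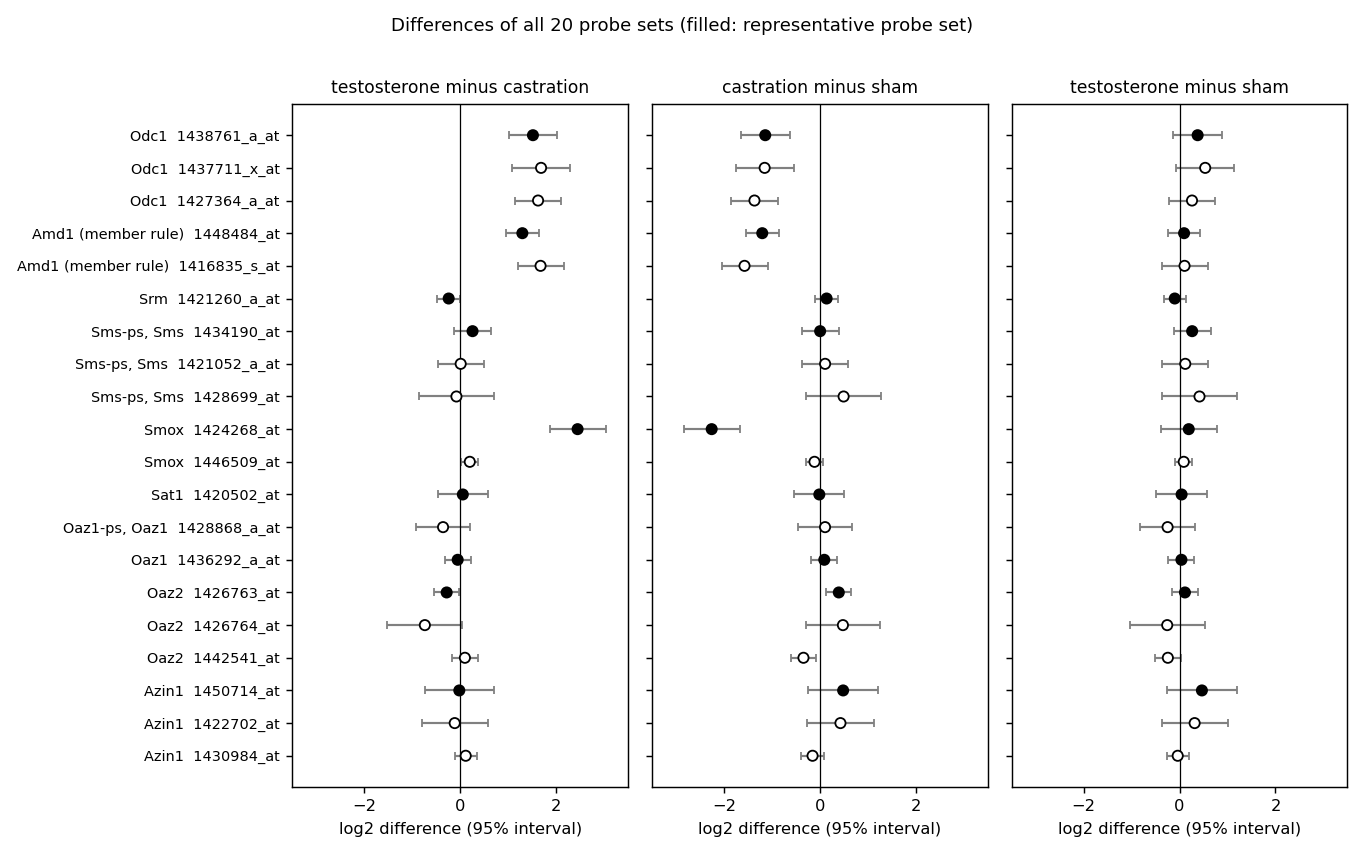
Log2 differences with 95% intervals of all 20 probe sets for testosterone minus castration, castration minus sham and testosterone minus sham, with the representative probe set of each gene filled. The intervals of the 3 Odc1, both Amd1 and the brighter Smox probe sets exclude 0 in the first 2 comparisons and include it in the third. So does that of the Oaz2 probe set 1426763_at, with the opposite signs. Those of Srm and of Smox on 1446509_at exclude 0 only in the first, and that of Oaz2 on 1442541_at only in the second.

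Among the synthases downstream of Odc1 and Amd1, Srm was at 4.62, 4.73 and 4.40 in testosterone, at 4.67, 4.87 and 4.93 in castration and at 4.70, 4.62 and 4.73 in sham. Its groups overlapped, and the difference between castration and both other groups was 0.19, with a 95% interval of −0.01 to 0.39. Testosterone differed from castration by −0.24 (−0.47 to −0.01, adjusted p = 1.00), an interval that excludes 0 before adjustment. The brightest probe set of Sms and Sms-ps, 1434190_at, was at 9.51, 9.01 and 9.24 in testosterone, at 8.63, 9.18 and 9.17 in castration and at 8.96, 9.05 and 8.95 in sham. Its difference in the same contrast was −0.13 (−0.46 to 0.21), and those of the other 2 Sms probe sets were 0.05 and 0.29.

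Sat1, the acetyltransferase, was at 5.36, 5.47 and 5.13 in testosterone, at 5.51, 5.33 and 4.95 in castration and at 5.61, 4.76 and 5.45 in sham. Its groups overlapped widely, and castration differed from both others by −0.03 (−0.49 to 0.42). Of the breakdown enzymes measured, only Smox was called, and Paox was not analysed here.

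Oaz1 ranged between 10.99 and 11.35 over all arrays on its brightest probe set listed to it alone, with means of 11.15 in testosterone, 11.20 in castration and 11.11 in sham. Castration differed from both others by 0.07 (−0.16 to 0.31), an interval that reaches 1.24-fold higher. The probe set shared with Oaz1-ps ranged from 10.57 to 11.67 and differed by 0.23 (−0.26 to 0.73), and by 0.07 without both arrays that stand apart. Oaz2, on its brightest probe set 1426763_at, was at 9.36, 9.12 and 8.98 in testosterone, at 9.51, 9.48 and 9.33 in castration and at 9.04, 8.91 and 9.19 in sham. Its castration arrays lay above all sham arrays and overlapped testosterone. Castration differed from sham by 0.39 (0.13 to 0.66) and testosterone from castration by −0.28 (−0.545 to −0.0195). The difference between castration and both others was 0.34 (0.11 to 0.57, SE 0.10, adjusted p = 0.999). These intervals exclude 0 before adjustment. The 3 Oaz2 probe sets did not share a sign: they differed by 0.34, 0.61 and −0.22, the last, 1442541_at, being near the array medians at 3.00 to 3.75. Without both arrays that stand apart they differed by 0.30, 0.37 and −0.15.

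Azin1 was at 7.45, 6.82 and 7.43 in testosterone, at 7.26, 7.24 and 7.24 in castration and at 7.29, 5.97 and 7.04 in sham. The low sham mean came from sham 2, and the castration arrays lay inside the range of the others. Castration differed from sham by 0.48, and by 0.0851 without sham 2. The second probe set, 1422702_at, differed by 0.43 (−0.26 to 1.12) in that comparison and by 0.0746 without both arrays that stand apart, and its lowest value, 3.89, was again on sham 2. The third, 1430984_at, was at 2.74 to 3.11 on all arrays, below every array median.

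**Figure D4:**
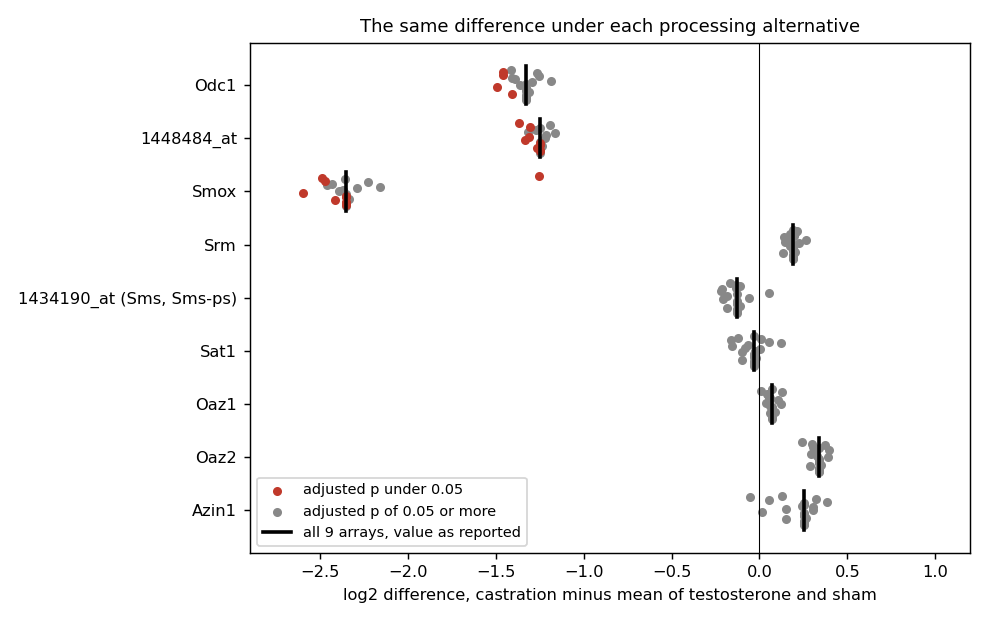
Log2 difference between castration and the mean of testosterone and sham (x axis) for the representative probe set of each gene, under each processing alternative (1 point each) and as reported (black line). Smox, Amd1 and Odc1 stay on the left in all of them, Smox at −1.25 when its bright and dim probe sets are averaged, while the points of Sat1, Azin1 and Sms lie on both sides of 0.

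The neighbouring steps of the pathway were read from 5 lists, in which 30 of 34 genes had a probe set listed to them alone, and p-values were adjusted over all probe sets. None of the 30 passed in any comparison. Their median difference between castration and both others was 0.02, and over all probe sets it was −0.0022. Among genes that supply ornithine and arginine, 0 of 9 passed, and those with the smallest F test p-values were Agmat, Gatm and Oat. Oat, the ornithine aminotransferase, averaged 8.93, 9.39 and 9.00 in testosterone, castration and sham, a difference between castration and both others of 0.42 (−0.12 to 0.96). Its lowest values, 8.22 and 8.76, were on testosterone 2 and sham 2, the arrays that stand apart. Agmat, which makes putrescine from agmatine, and Gatm, which uses arginine for creatine synthesis, lay near the array medians, with differences between castration and both others of −0.02 and 0.23. Agmat differed by −0.32 (−0.61 to −0.03, adjusted p = 0.797) between testosterone and sham, with arrays that did not overlap, and was the only one of the 30 genes with an unadjusted p under 0.05 there, against 4.75% of all probe sets. The arginases Arg1 and Arg2 had group means between 2.79 and 2.97, below the lowest array median.

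Of genes that supply S-adenosylmethionine or salvage its methylthioadenosine by-product, 0 of 7 passed, and Mat2a had no probe set listed to it alone. Mtap, the phosphorylase that clears methylthioadenosine made by Srm and Sms, averaged 6.15, 6.27 and 5.81 in testosterone, castration and sham. Enoph1 and Adi1, later enzymes of that salvage, differed between castration and both others by 0.03 (−0.73 to 0.79) and −0.37 (−1.05 to 0.31). Adi1 was at 6.80 on testosterone 2 and 6.43 on sham 2, the arrays that stand apart, and at 5.41 to 5.78 on the rest. In the list for hypusine, the modified lysine that spermidine provides to Eif5a, 0 of 4 passed. Eif5a averaged 11.35, 11.30 and 11.29 in testosterone, castration and sham, and castration differed from both others by −0.02 (−0.15 to 0.12). Dohh and Dhps, the enzymes that make hypusine, differed by 0.07 and 0.24.

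Of the transport genes 0 of 6 passed. Cav1, a caveolar coat protein, averaged 9.27, 9.63 and 9.48 in testosterone, castration and sham, and testosterone differed from castration by −0.36 (−0.68 to −0.03), the only one of the 30 genes with an unadjusted limma p under 0.05 in that comparison (adjusted p = 1.00). That count is near the background of 3.02% of all probe sets. The lowest Cav1 value, 8.94, was on testosterone 2, which stands apart. The other testosterone arrays were at 9.46 and 9.42, and castration at 9.51 to 9.77. Cav1 is also abundant in endothelium and fat, whose marker scores are given above, and their part in its value was not tested. Atp13a3, a polyamine transporter of the endosome, averaged 5.12, 5.13 and 4.37, and Slc18b1, a vesicular polyamine transporter, 3.51, 3.19 and 3.31. The other family members Sat2, Satl1 and Azin2 had group means of 4.11, 3.95 and 4.11, of 2.82, 2.91 and 2.95 and of 3.64, 3.76 and 3.74, and with Oaz3 0 of 4 passed.

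**Figure D5:**
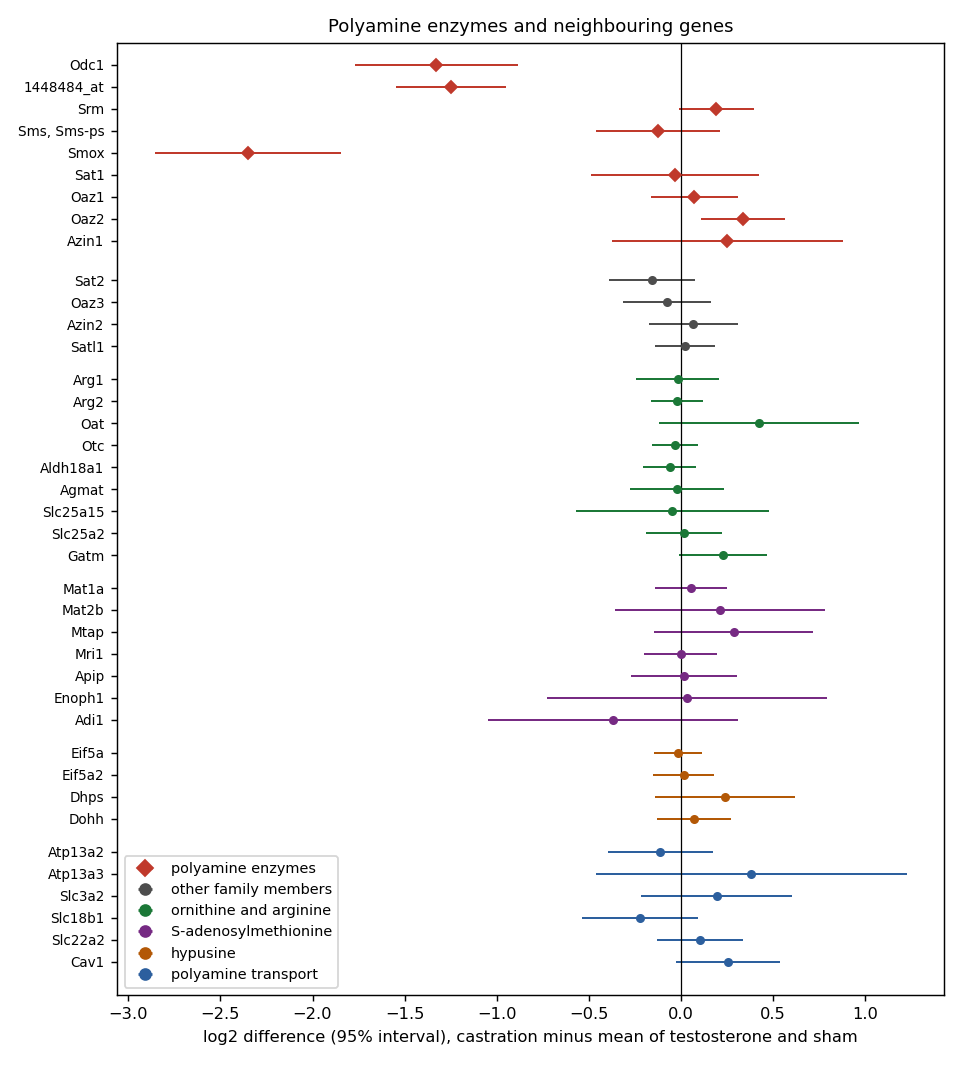
Log2 differences with 95% intervals between castration and the mean of testosterone and sham for the 9 polyamine genes (diamonds) and 30 neighbouring genes (circles, coloured by list). Odc1, Amd1 and Smox stand between −2.35 and −1.25, and every neighbouring gene lies between −0.37 and 0.42 with an interval that includes 0.

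Likeness was taken as Pearson's r of log2 values over the 9 arrays, among 2897 genes with a range of at least 1, and is a description only, since 3 groups set most of it. The genes most like Smox were Spns2 (r = 0.983), Odc1 (0.969), Fkbp5 (0.963), Slc30a2 (0.955) and Ppp1r3c (0.943), and those least like it were Sesn1 (−0.961), Actc1 (−0.956) and Dbp (−0.941). For Odc1 they were Slc30a2 (0.991), Smox (0.969), Slc38a2 (0.962), Spns2 (0.960) and Hr (0.957), and at the other end Actc1 (−0.942), Sesn1 (−0.905) and Mybph (−0.895). Against Smox the probe sets taken for Amd1 had r of 0.968 for the brighter and 0.974 for the dimmer. Among the other members r with Smox was 0.345 for Sms, 0.138 for Sat1, −0.085 for Azin1, −0.241 for Oaz1, −0.581 for Srm and −0.758 for Oaz2.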

How the data were processed

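The authors deposited 1 log2 value per probe set and Affymetrix array. Per the submitters' processing notes they used RMA, which subtracts background, makes the arrays' distributions alike and combines a probe set's probes, so that a change in total RNA is not seen. The RMA version and a genome build are not given in the sources used here. No further scaling was applied. Per the labels' protocols, 4 µg of RNA from each of 3 animals were pooled per array and 12 µg labelled, so 27 of 36 mice were measured. Groups and replicate numbers came from the sample titles. Arrays have no read depth, and 3 per group limit the precision.

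Of 45101 probe sets, 64 controls were left out. Of the rest, 34945 are listed to 1 gene, 932 to several and 9160 to none, and 204 of those listed to 1 gene found no match in the reference gene table and kept their symbol. All 45037 were fitted with limma 3.58.1 in R 4.3.3 (lmFit, eBayes), with the group as the only term over all 9 arrays. Tests were two-sided, adjusted by Benjamini-Hochberg over all probe sets of a comparison, with a threshold of 0.05. A gene is represented by its brightest probe set listed to it alone, for Sms by its brightest. Every member probe set was reported. For each neighbouring list, genes passing were to be named, or else the 3 with the smallest F test p. Arg1 and Arg2 were added after their values were seen. The genes most like Smox and Odc1 were the 5 with the highest and the 3 with the lowest Pearson r, leaving out predicted and clone names. The members, lists, contrasts and alternatives were chosen with earlier results of these data known. The fit was tested on simulated data with independent normal noise, at each probe set's own spread, and no arrays that stand apart. For castration against both others it recovered 44 of 50 changes of 1 log2 unit, with 15 false calls. These arrays do not meet that setting, so this recovery does not carry over to them. Arrays shared at most 5.78% of identical values. Same-numbered arrays did not deviate together throughout, so the replicate numbers were not taken to pair them.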

Additional observations from a re-analysis of the deposited data

How the results depend on the processing

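Precision rests on 3 pools per group. Over the processing alternatives, excluding single other probe sets, all 189 values of Smox, Odc1 and the brighter Amd1-assigned probe set kept their sign in the comparisons with castration, while their adjusted p moved across the threshold. The cause was not tested. For castration against both others, 3 of 20 member probe sets passed, against 0 with the replicate block, median centring or analysis of variance without moderation, 1 of the 7 left with 1 probe set per gene, 5 after renewed quantile normalization or without both arrays that stand apart and 6 with array weights. Over all probe sets the 14 calls became 0 with the block, 0 with median centring, 2 without moderation, 10 with 1 probe set per gene, 20 with quantile normalization, 46 without both arrays, 90 with array weights, 20 without dim probe sets, and 0 to 23 leaving out 1 array. In the other comparisons, where limma called 0 of all probe sets, analysis of variance without moderation called 1 for testosterone against castration, 2 for castration against sham, 1 for testosterone against sham and 3 for the F test. For testosterone against castration the 0 members passing became 4 after renewed quantile normalization, 3 with an intensity trend, 6 with array weights and 4 without both arrays that stand apart. For castration against sham they became 2 with an intensity trend, 5 with weights and 3 without both arrays, and for the F test 3, 6 and 3. Leaving out 1 array gave 0 to 5 members passing for testosterone against castration and for castration against both, 0 to 3 for the F test and 0 to 0 for the other comparisons, the highest counts without sham 2. Array weights ranged from 0.223 for sham 2 to 2.47 for sham 1. Deviations of same-numbered arrays correlated between −0.474 and 0.312, over 0.1 in 5 of 9 pairs. Those of differently numbered arrays correlated between −0.355 and 0.485, over 0.1 in 5 of 18 pairs. The replicate block changed no other count of member calls.

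Signs of values that never passed turned in places. With renewed quantile normalization Sms was −0.0871 in castration minus sham and Sat1 −0.11 in testosterone minus sham. With median centring Sat1 was 0.0195 in castration minus sham. With array weights, in testosterone minus castration, Sat1 was −0.022 and Azin1 0.0761, Sms was −0.0403 in castration minus sham, and in testosterone minus sham Smox was −0.11 and Sat1 −0.24. Without both arrays that stand apart, Sat1 was −0.0206, Oaz1 0.02 and Azin1 0.19 in testosterone minus castration, Smox −0.0048 and Sat1 −0.29 in testosterone minus sham, and Azin1 −0.0515 in castration against both. For testosterone minus sham Oaz2 was −0.13 as the mean of its probe sets and −0.26 on 1426764_at. On 1442541_at Oaz2 was 0.10, −0.34, −0.24 and −0.22, and on 1430984_at Azin1 was 0.11, −0.15, −0.038 and −0.13, in testosterone minus castration, castration minus sham, testosterone minus sham and castration against both. Leaving out 1 array in turn, testosterone minus castration ran from −0.1016 to 0.1784 for Sat1, −0.1563 to 0.0193 for Oaz1 and −0.1251 to 0.1882 for Azin1. Castration minus sham ran from −0.2679 to 0.158 for Sat1 and −0.0883 to 0.1881 for Sms. Testosterone minus sham ran from −0.2135 to 0.2124 for Sat1, −0.0645 to 0.1464 for Oaz1, −0.0211 to 0.2205 for the brighter Amd1-assigned probe set and −0.0434 to 0.4442 for Smox. Castration against both others ran from −0.1611 to 0.1229 for Sat1 and −0.2196 to 0.0568 for Sms.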

Other observations

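Several members and neighbouring genes, picked after their values were seen, had their lowest value of all 9 arrays on sham 2. Azin1 was at 5.97 there, against 7.04 to 7.29 on the other sham arrays. Atp13a3 was at 3.30, against 4.67 and 5.14, and Mtap at 5.21, against 6.03 and 6.19. Slc3a2, the heavy chain of amino acid transporters also linked to polyamine efflux, was at 5.87, against 6.67 and 6.75. Sat1 was at 4.76, against 5.45 and 5.61.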
